A study of Mus musculus with 6 samples.

Results

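The genes described here are the estrogen-related receptors Esrrb, Esrra and Esrrg and 7 of their coregulators, namely Ppargc1a, Ppargc1b, Pprc1, Nrip1, Ncoa1, Ncoa3 and Nr0b1. They were taken as all probe sets to which the platform annotation assigns exactly 1 symbol, that symbol being 1 of these 10, which gave 27 of the 45037 probe sets tested and 10 of the 18193 genes with such a probe set. The Errb mutant group comprised 3 pools of stria vascularis from mice in which Esrrb, called Errb in the labels, was mutated through a conditional knock-out approach, and the wild type group comprised 3 pools of the same tissue. Each pool held 10 mice and was hybridised to 1 Affymetrix array, and a postnatal age of 3 to 5 days is given for wild type replicate 1 alone. The design text speaks of inner ears where the sample labels say stria vascularis, and no source used here names a Cre driver, a strain or the deleted part of Esrrb. Nothing in the labels says that the pools of a genotype came from separate litters or dissections, so the p-values cover no more than the variation among these 6 arrays, which may be technical.

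The estrogen-related receptors are orphan nuclear receptors that bind DNA at an extended half-site and act on transcription without a known hormone, so their activity depends largely on the coregulators they recruit. The coactivators of the PGC-1 family (Ppargc1a, Ppargc1b and Pprc1) work with these receptors to turn on mitochondrial and oxidative genes. The p160 coactivators Ncoa1 and Ncoa3 serve many nuclear receptors, whereas Nrip1, also called RIP140, and Nr0b1, also called DAX-1, act mainly as corepressors. In the stria vascularis, the epithelium that secretes potassium into endolymph, Esrrb is known as a receptor of the marginal cells, which hold many mitochondria.

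The promoters of Ppargc1a and Esrrb are shown because the probe sets of the first gene differed most between the genotypes and the second is the mutated gene. Each is a RefSeq promoter window of assembly GRCm38.p6, running from 250 bases before to 50 bases after a transcript start. Capitals mark TGACG, the half-site of the cyclic AMP response element, on either strand (CGTCA is its reverse complement), and would also mark AGGTCA, the core half-site of nuclear receptors, which none of the 3 windows held. The Ppargc1a window is chr5:51567676-51567975 on the minus strand, and those of Esrrb are chr12:86360867-86361166 and chr12:86421394-86421693 on the plus strand.
Ppargc1a: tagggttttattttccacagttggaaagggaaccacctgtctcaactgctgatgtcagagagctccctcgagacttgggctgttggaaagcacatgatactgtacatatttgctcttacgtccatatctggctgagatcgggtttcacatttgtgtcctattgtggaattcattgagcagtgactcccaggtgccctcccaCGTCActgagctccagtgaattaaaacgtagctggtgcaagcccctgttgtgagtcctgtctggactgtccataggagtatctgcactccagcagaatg
Esrrb, upstream start: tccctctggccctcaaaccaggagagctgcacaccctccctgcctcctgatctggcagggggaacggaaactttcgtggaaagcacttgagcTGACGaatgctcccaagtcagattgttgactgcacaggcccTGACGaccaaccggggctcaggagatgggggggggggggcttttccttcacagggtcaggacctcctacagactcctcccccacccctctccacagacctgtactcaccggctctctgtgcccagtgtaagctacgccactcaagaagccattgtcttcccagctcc
Esrrb, downstream start: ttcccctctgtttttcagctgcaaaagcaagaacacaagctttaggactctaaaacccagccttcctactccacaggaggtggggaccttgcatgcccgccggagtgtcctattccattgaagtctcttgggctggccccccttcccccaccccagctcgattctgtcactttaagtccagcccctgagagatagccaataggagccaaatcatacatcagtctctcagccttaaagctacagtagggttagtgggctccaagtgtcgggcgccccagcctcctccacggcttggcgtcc

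The table of promoters held 13 windows for 8 of the 10 genes, namely Esrrb, Esrra, Esrrg, Ppargc1a, Pprc1, Nrip1, Ncoa1 and Nr0b1. The extended half-site of the estrogen-related receptors, searched as TNAAGGTCA on both strands, occurred in 0 of these 13 windows and in 1.28% of all 32851 windows. The shorter AGGTCA, which lies within it, occurred in 2 of the 13, those of Pprc1 and Nr0b1, against 16.3% of all windows. TGACG occurred in 2 of the 13, those of Ppargc1a and of the upstream start of Esrrb, against 20.8% of all, and the full element TGACGTCA in 0 of 13, against 1.79%. In the Ppargc1a window the match began 49 bases before the start on the reverse strand. Only this window was held for Ppargc1a, so any other start of the gene was not searched. These matches describe letters in a window and say nothing of binding.

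Values are log2 expression as deposited, and differences are Errb mutant minus wild type of same-numbered arrays, given as the mean ± SD of the 3 pairs (n = 3). They were tested with limma with the replicate number as a block, and p-values were adjusted by the Benjamini-Hochberg method over all 45037 probe sets with a threshold of 0.05. Array medians were 6.08, 6.94 and 6.38 in the Errb mutant replicates 1 to 3 and 6.07, 6.95 and 6.42 in the wild type replicates, so the tests compare levels within a pair. Pair 1 stood apart in RNA quality, with a 3' minus 5' gap of the Gapdh control probe sets of 2.57 in its mutant array and 2.28 in its wild type array, against -0.04 to 0.51 on the other 4 arrays. In pair 1, 34.2% of all probe sets had identical values on both arrays, against 2.63% and 3.10% in pairs 2 and 3. The smallest p open to an exact permutation test was 0.1 for 3 arrays against 3, and 0.25 for sign changes of 3 pairs. The wild type tissue held the defining markers of the stria: Kcnq1 of marginal cells lay between the 90.0 and 94.6 percentile of all probe sets on the wild type arrays, and Dct of intermediate cells at the 99.4 percentile.

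None of the 27 probe sets passed in the limma fit, against 0.0933% of all probe sets (42 of 45037). Of all probe sets 0.0111% passed as higher and 0.0822% as lower in the mutant. At an unadjusted p under 0.05 the count was 7 of 27, or 25.9%, against 7.18% of all probe sets. Among the 27, 6 of these were lower and 1 was higher in the mutant, against 3.07% and 4.11% of all probe sets. These 7 were all 5 probe sets of Ppargc1a, 1 of the 3 of Esrrg and 1 of the 6 of Nrip1, and probe sets of 1 gene measure the same transcripts and are not independent. In the fit without the block 0 of 27 passed and 0 had an unadjusted p under 0.05, against 0.00666% and 0.209% of all probe sets. The differences of the 27 probe sets ran from -0.70 to 0.33, with 21 below 0 and 6 above, and a median of -0.10. Without Ppargc1a, 16 of the other 22 were below 0 and 6 above, with a median of -0.07. Of all 45037 probe sets, 23032 were below 0 and 22005 above, with a median of -0.003.

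**Figure D1:**
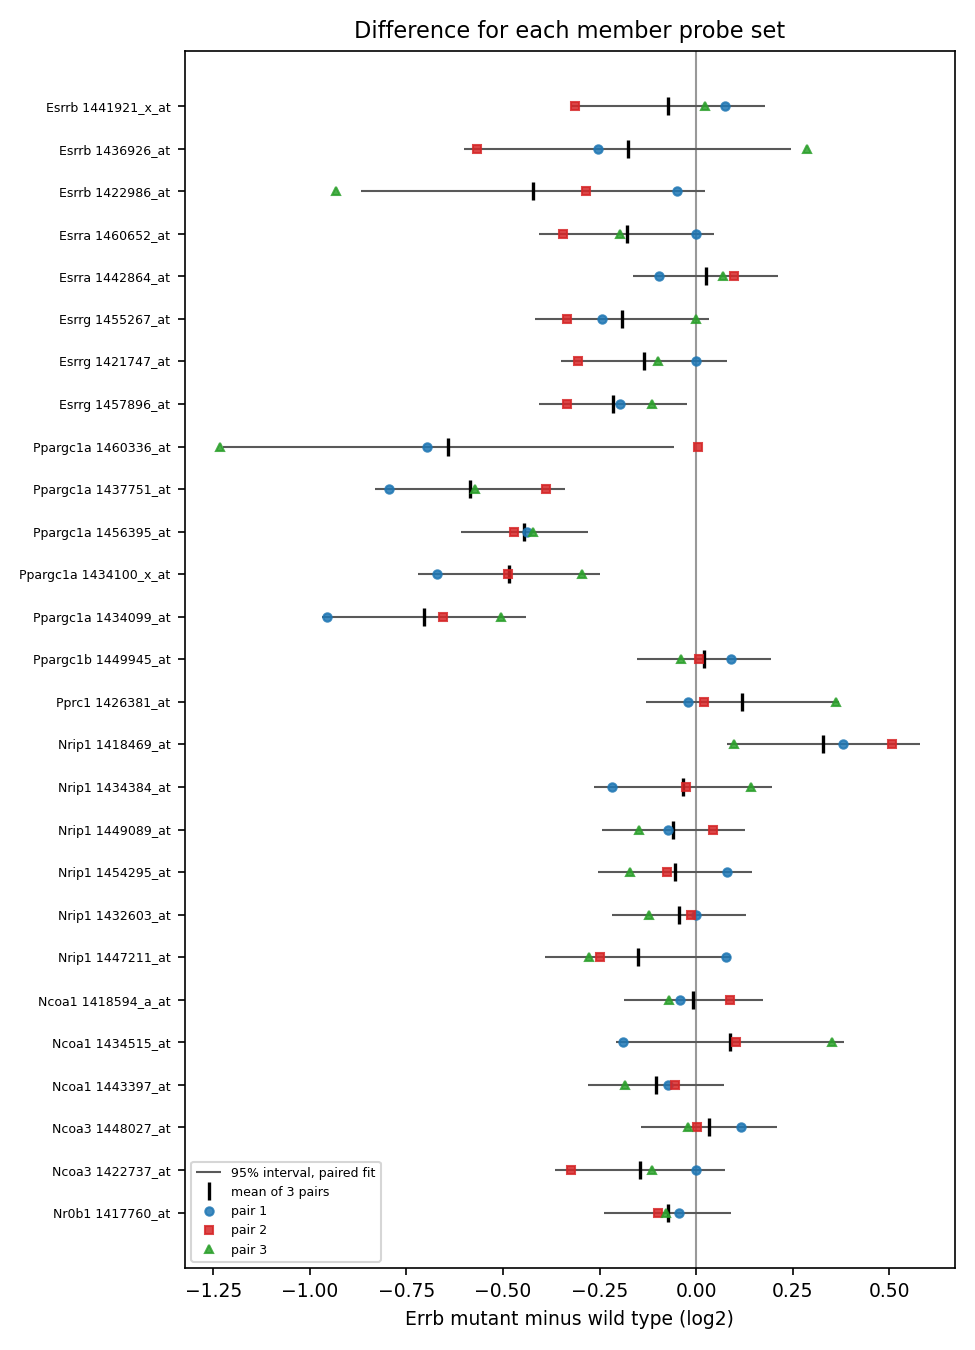
Difference in log2 expression, Errb mutant minus wild type, for each of the 27 probe sets. Symbols are the 3 pairs, the black tick is their mean and the grey line the 95% interval of the paired fit; the 5 Ppargc1a means lie between -0.70 and -0.44, left of the other 22.

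Esrrb, the mutated gene, had 3 probe sets, of which 2 lay high on the arrays of both genotypes. The suffix of probe set 1441921_x_at marks probes that can cross-hybridise, so part of its signal may come from other transcripts. It had 9.76, 10.28 and 9.98 in the mutant arrays and 9.68, 10.60 and 9.96 in the wild type arrays. As the Esrrb probe set of highest mean, it also stands for Esrrb in the gene lists and correlations below. The mutant arrays lay between the 93.6 and 95.3 percentile and the wild type arrays between the 94.3 and 95.3 percentile, and the difference was -0.07 ± 0.21. Probe set 1436926_at had 8.67, 9.98 and 10.28 in the mutant and 8.92, 10.55 and 10.00 in wild type. Here pairs 1 and 2 were lower in the mutant and pair 3 higher (-0.25, -0.57 and 0.29), with a 95% interval of -0.60 to 0.25.

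The remaining Esrrb probe set, 1422986_at, is the only 1 of the 3 that the annotation ties to the RefSeq transcript of the gene rather than to an expressed sequence tag. It had 4.85, 7.59 and 7.21 in the mutant arrays and 4.90, 7.87 and 8.15 in the wild type arrays. Both arrays of pair 1 were far below the others, at the 25.6 percentile in the mutant and the 27.0 percentile in wild type, while the highest array reached the 63.3 percentile in the mutant and the 77.3 percentile in wild type. The mutant was lower in all 3 pairs, with differences of -0.05, -0.29 and -0.93 and a mean of -0.42 ± 0.46, an interval of -0.87 to 0.02 and an adjusted p of 0.719 (limma). Without pair 1, where the Gapdh gap was wide on both arrays, the difference was -0.61. It was -0.49 without pair 2 and -0.17 without pair 3. In pair 3, which held the difference of -0.93, the Gapdh gap was 0.51 in the mutant and -0.04 in wild type. The gap of Actb was 0.49 in the mutant and 0.18 in wild type. The part of RNA quality in these values was not tested.

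The adjusted p of the other 2 Esrrb probe sets was 0.856 and 0.793 (limma). The lower bounds of the 3 intervals were -0.32, -0.60 and -0.87. The mean of the 3 probe sets differed by -0.22, with a 95% interval of -0.42 to -0.03 and an adjusted p of 0.557 over 18193 genes (limma). No source used here places these probes on exons or names the deleted exons, so a transcript that lacks the deleted part could keep its signal on any of them, and their values check nothing about the genotype labels.

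**Figure D2:**
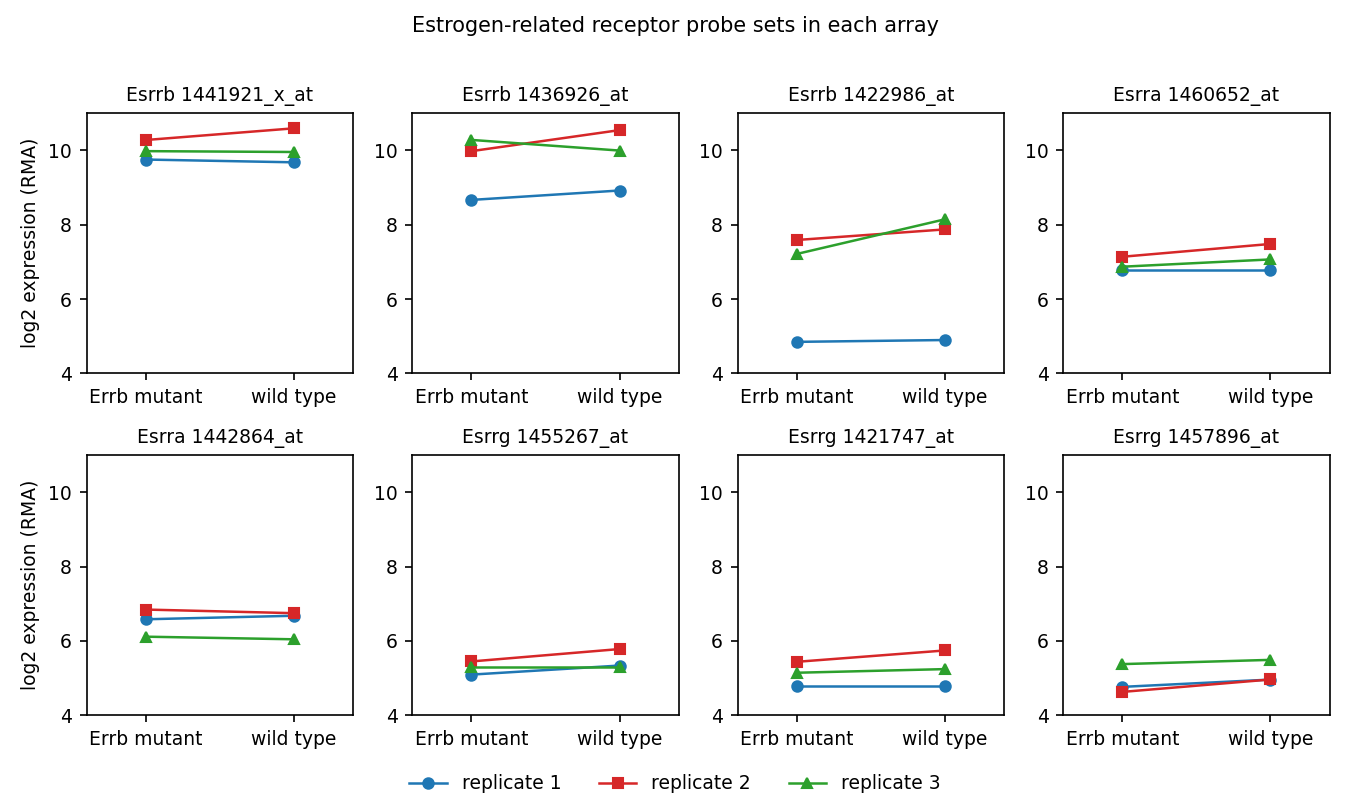
Log2 expression of the 8 probe sets of Esrrb, Esrra and Esrrg on each array, with Errb mutant on the left and wild type on the right of each panel and lines joining arrays of the same replicate number. Most lines are close to level; replicate 1 lies near 4.9 for Esrrb 1422986_at on both arrays, below replicates 2 and 3.

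Esrra, the receptor most tied to PGC-1 and oxidative metabolism, did not pass in either direction. Probe set 1460652_at had 6.78, 7.14 and 6.87 in the mutant arrays and 6.78, 7.48 and 7.07 in the wild type arrays. Pair 1 was identical and pairs 2 and 3 were lower in the mutant, a difference of -0.18 ± 0.17 with a 95% interval of -0.41 to 0.05. Its second probe set, 1442864_at, gave 6.58, 6.84 and 6.11 in the mutant and 6.68, 6.75 and 6.04 in wild type, a difference of 0.02 ± 0.10. The upper bounds of the intervals were 0.05 and 0.21 on the log2 scale.

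Esrrg, the third receptor, which is known for high expression in heart, kidney and brain, had 3 low probe sets. 1457896_at had 4.76, 4.63 and 5.37 in the mutant and 4.96, 4.96 and 5.49 in wild type. It was lower in the mutant in each pair, with a difference of -0.21 ± 0.11 and an adjusted p of 0.645 (limma). The other 2, 1455267_at and 1421747_at, differed by -0.19 ± 0.17 and -0.13 ± 0.16, and each had 1 pair with identical values. All 3 lay between the 10.6 and 35.6 percentile of their arrays. The deposited values carry no detection call, so these values do not show whether Esrrg was expressed in this tissue.

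Ppargc1a, which encodes PGC-1 alpha, had the 5 lowest mean differences of the 27 probe sets, although none passed after adjustment. Probe set 1456395_at had 6.23, 7.14 and 6.64 in mutant replicates 1 to 3, against 6.67, 7.61 and 7.06 in wild type replicates 1 to 3. The mutant array was lower in each pair, by nearly the same amount. The difference was -0.44 ± 0.03, with a 95% interval of -0.61 to -0.28 and an adjusted p of 0.211 (limma).

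Probe set 1434099_at showed the largest mean difference. It had 5.78, 6.72 and 5.70 in the mutant arrays, against 6.73, 7.37 and 6.20 in the wild type arrays. That was a difference of -0.70 ± 0.23, or a level 1.63-fold higher in wild type, with an interval of -0.97 to -0.44 and an adjusted p of 0.212 (limma). Probe set 1434100_x_at was designed on the same transcript record as 1434099_at, so the pair are not separate evidence, and its suffix marks probes that can cross-hybridise. It had 5.76, 6.81 and 5.97 in the mutant and 6.43, 7.29 and 6.27 in wild type, a difference of -0.48 ± 0.19 with an adjusted p of 0.317 (limma).

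The other 2 probe sets of Ppargc1a rest on further transcript records. 1437751_at had 6.21, 7.75 and 6.90 in the mutant arrays and 7.00, 8.14 and 7.47 in the wild type arrays. It was lower in the mutant in every pair, with differences of -0.79, -0.39 and -0.57 and a mean of -0.58 ± 0.20, with an adjusted p of 0.253 (limma). 1460336_at, the best expressed of the 5, was not lower in every pair. It had 6.98, 7.92 and 6.28 in the mutant arrays and 7.68, 7.91 and 7.51 in the wild type arrays. The arrays of pair 2 were equal within 0.01, while pairs 1 and 3 differed by -0.70 and -1.23, and the adjusted p was 0.659 (limma).

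**Figure D3:**
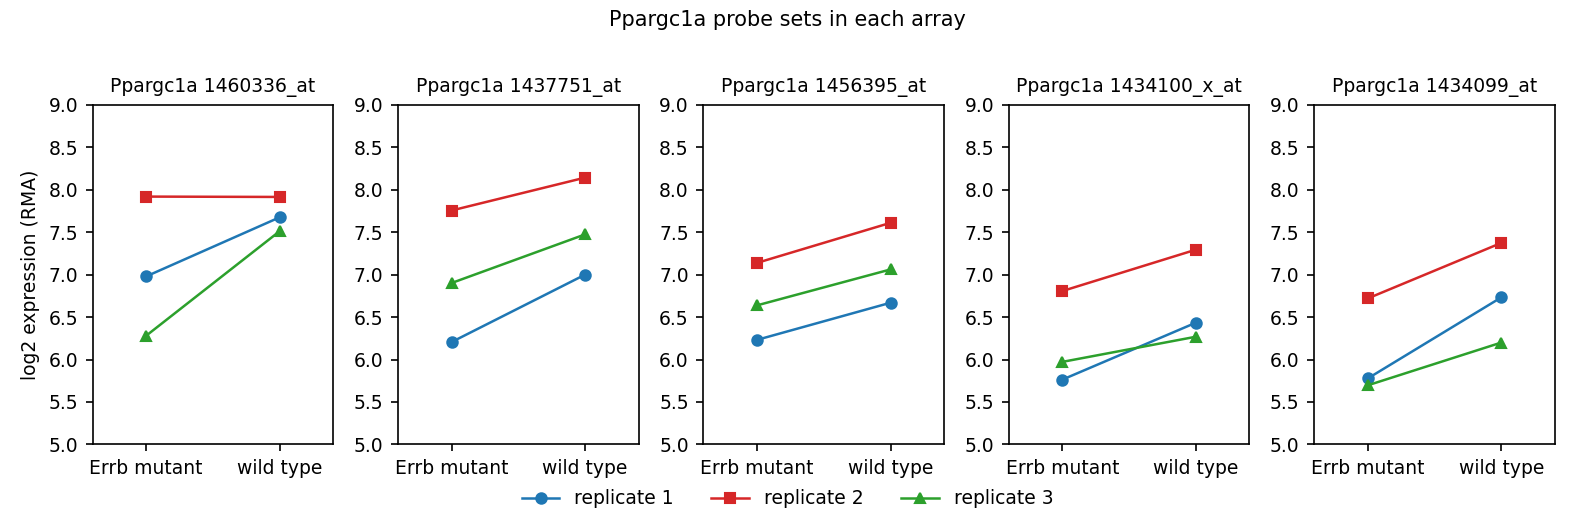
Log2 expression of the 5 Ppargc1a probe sets on each array, with Errb mutant on the left and wild type on the right of each panel and lines joining arrays of the same replicate number. The mutant array is the lower of its pair in 14 of 15 pairs of points, the exception being replicate 2 of 1460336_at.

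Across the gene, 14 of 15 pair differences of Ppargc1a were below 0. Of its 5 probe sets, 4 were lower in the mutant in all 3 pairs, a pattern found in 8 of the 27 probe sets and in 8.41% of all probe sets. Probe sets with identical values in a pair, 34.2% of all in pair 1, cannot show this pattern. No Ppargc1a probe set had such a pair, so the share of all probe sets is not a like comparison. When each value was expressed as a percentile of its own array, the 3 mutant arrays lay below the 3 wild type arrays without overlap for 4 probe sets of Ppargc1a and for no other of the 27, against 1.45% of all probe sets. This count sets arrays of different pairs side by side, and no source used here says whether the pairs were processed together. No member showed the opposite, a separation with the mutant higher, against 0.95% of all probe sets. For 1456395_at, the most clearly separated of the 4, the percentiles were 53.0 to 54.3 in the mutant and 60.8 to 62.2 in wild type. The others were separated by less. The highest mutant and lowest wild type percentiles were 64.4 and 66.6 for 1437751_at. They were 67.07 and 67.15 for 1460336_at, and 46.02 and 46.19 for 1434099_at, so these 2 barely separated.

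The mean of the 5 probe sets, fitted with the gene means of all 18193 genes, differed by -0.57 ± 0.16, with -0.71, -0.40 and -0.61 in pairs 1 to 3. Its 95% interval was -0.77 to -0.38 and its adjusted p 0.0788 (limma), in a fit in which 58 genes, or 0.319%, passed. This mean was chosen after seeing the data, and its adjusted p ranged from 0.0537 to 1.00 over 8 alternatives. The value of 1.00 came from the fit without the block, and leaving out pair 2 or pair 3 gave 0.837 and 0.603. The 5 probe sets were lower in the mutant in each of the 9 other settings run on all of them, also without pair 1. Dropping the block, filtering on level and a variance trend with robust moderation leave the estimates unchanged, so those settings could not alter a sign.

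Markers of marginal, intermediate and basal cells lay mostly lower in the mutant beside Ppargc1a, and markers of some other cells also differed in level. All 8 marginal cell markers, a list that holds Esrrb itself, had differences below 0, and the medians of pairs 1 to 3 were -1.09, -1.21 and -1.05. The median of their mean differences was -1.13, and Kcne1, Kcnq1 and Slc12a2 passed as lower. Kcne1, the channel subunit that defines marginal cells, had 5.51, 5.95 and 4.70 in the mutant arrays and 10.03, 9.92 and 9.16 in the wild type arrays. The mean level of the 8 markers ranged from 7.94 to 8.91 over the mutant arrays and from 9.31 to 10.25 over the wild type arrays. Of 7 intermediate cell and melanocyte markers, 6 had differences below 0 (median -0.71), and of 5 basal cell markers, 4 did (median -0.37), of which Gjb6 passed. The 5 spindle and root cell markers lay in the other direction, with a median of 0.22, pair medians of 0.06, 0.28 and 0.21, and 3 of 5 with an unadjusted p under 0.05. The 2 erythroid markers measured had a median of -0.37 and pair medians of -0.08, -0.53 and -0.50, and no gene of these 2 lists passed. All 5 cartilage and bone markers measured had differences above 0 (median 0.10) and all 5 endothelial markers below 0 (median -0.11). Of all 18193 genes, 9346 had differences above 0 and 8847 below. In pairs 1 to 3 the cartilage and bone markers had medians of 0, 0.12 and 0.17, and mean differences of 0.75, 0.08 and 0.15. The 3 Schwann cell markers measured had pair medians of 0.40, -0.06 and 0.04. Their mean differences were 0.48, -0.10 and 0.06, and no gene of these further lists passed. In pooled tissue, fewer cells of a type and less RNA per cell cannot be told apart. The part of these cells in the Ppargc1a values was not tested.

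PGC-1 alpha is also abundant in muscle, fat and neurons, and the markers of these cells were read beside it. The 6 skeletal muscle markers had a median difference of -0.08, with mean levels of 5.19 to 6.01 on the mutant arrays and 5.13 to 6.06 on the wild type arrays. The 3 adipocyte markers measured had a median of 0.05 and mean levels of 4.36 to 5.11 on the mutant arrays and 4.48 to 5.11 on the wild type arrays. Of the 7 neuron markers 6 had differences above 0, and the median of the 7 was 0.98. It came to 2.65 in pair 1, against 0.34 and 0.24 in pairs 2 and 3. No gene of these 3 lists passed, and the part of muscle, fat and neurons in the Ppargc1a values was not tested.

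Ppargc1b and Pprc1, the other PGC-1 family coactivators, had 1 probe set each and small differences. Ppargc1b had 7.42, 7.73 and 6.93 in the mutant arrays and 7.33, 7.72 and 6.97 in the wild type arrays. These values were nearly equal within each pair, a difference of 0.02 ± 0.07 with a 95% interval of -0.15 to 0.19. Pprc1 had 7.89, 8.40 and 7.99 in the mutant and 7.91, 8.38 and 7.63 in wild type. Pairs 1 and 2 were level and the mutant array of pair 3 was 0.36 higher, so that the mean of 0.12 ± 0.21 was smaller than the spread between pairs.

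None of the 5 probe sets of the p160 coactivators Ncoa1 and Ncoa3 passed. Ncoa1 probe set 1418594_a_at had 8.32, 9.72 and 9.10 in the mutant arrays and 8.36, 9.63 and 9.17 in the wild type arrays, a difference of -0.01 ± 0.08 with an interval of -0.19 to 0.17. Its other probe sets, 1434515_at and 1443397_at, differed by 0.09 ± 0.27 and -0.10 ± 0.07. Ncoa3 probe set 1448027_at had 7.90, 8.32 and 7.96 in the mutant arrays and 7.79, 8.32 and 7.98 in the wild type arrays. These were equal within 0.12 in each pair, a difference of 0.03 ± 0.07 with an interval of -0.14 to 0.21. The second Ncoa3 probe set, 1422737_at, differed by -0.15 ± 0.16, with identical values in pair 1. They had adjusted p-values between 0.750 and 0.981 (limma).

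The corepressor Nrip1 had 6 probe sets, which disagreed. 1418469_at had 9.31, 9.71 and 9.44 in the mutant arrays and 8.93, 9.21 and 9.34 in the wild type arrays. It was the only 1 of the 27 that was higher in the mutant in all 3 pairs, a pattern found in 12.1% of all probe sets. Probe sets with identical values in a pair cannot show it. The difference was 0.33 ± 0.21, or 1.26-fold, with an interval of 0.08 to 0.58 and an adjusted p of 0.555 (limma). 1449089_at, designed on the same transcript record, had 8.10, 9.10 and 8.56 in the mutant and 8.17, 9.06 and 8.70 in wild type. Its difference was -0.06 ± 0.10, with an interval of -0.24 to 0.13. The other 4 Nrip1 probe sets had differences between -0.15 and -0.03, and the mean of all 6 probe sets differed by -0.003.

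Nr0b1, which is known mainly from the adrenal gland, the gonads and embryonic stem cells, where its protein binds Esrrb, was near the bottom of the arrays. It had 3.55, 4.68 and 3.97 in the mutant arrays and 3.59, 4.78 and 4.05 in the wild type arrays. The genotypes were close in every pair (-0.07 ± 0.03), between the 7.65 and 12.3 percentile. Its adjusted p was 0.782 (limma), and at this level a difference may not be measurable.

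Beside these genes, 4 lists of related genes were read in the same fit, each gene by its best expressed probe set. None of the 61 genes measured passed, against 27 of 18193 genes, of which 3 were higher and 24 lower in the mutant. Of all 18193 genes, 9346 had differences above 0 and 8847 below. The 16 other nuclear receptor coactivators had 11 differences above 0 and 5 below, with a median of 0.10, and 2 of them, or 12.5%, had an unadjusted p under 0.05, against 7.35% of all genes. Kat2b, a histone acetyltransferase that binds p300, had 8.84, 10.20 and 9.55 in the mutant and 9.22, 10.38 and 9.82 in wild type. Its difference was -0.27 ± 0.10 (limma adjusted p = 0.504). Ncoa7, a coactivator of estrogen receptors, differed by 0.29 ± 0.20 (limma adjusted p = 0.617).

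Of 9 corepressors measured, 8 had differences above 0 and 1 below, with a median of 0.08. The medians of pairs 1 to 3 were 0, 0.14 and 0.19. An unadjusted p under 0.05 was found for 1 of the 9, or 11.1%, against 7.35% of all genes. The 2 with the smallest p were Tle1, of the Groucho family (0.23 ± 0.08), and Sirt1, the deacetylase that acts on PGC-1 alpha (0.14 ± 0.04), with adjusted p of 0.560 and 0.734 (limma). Sirt1 had 7.86, 8.13 and 7.59 in the mutant arrays and 7.76, 8.00 and 7.40 in the wild type arrays. Both genes were higher in the mutant in all 3 pairs, a pattern found in 12.1% of all probe sets. Those with identical values in a pair cannot show it.

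The 22 measured genes known as targets of PGC-1 and the estrogen-related receptors in oxidative tissue had 16 differences below 0 and 6 above, with a median of -0.06 and pair medians of -0.04, -0.11 and -0.16. The median of all 18193 genes was 0.00. An unadjusted p under 0.05 was found for 6 of the 22, or 27.3%, against 7.35% of all genes. Sod2, the mitochondrial superoxide dismutase, had 9.88, 9.98 and 9.67 in the mutant arrays and 10.13, 10.30 and 10.19 in the wild type arrays. It was lower in the mutant in each pair (-0.37 ± 0.14, limma adjusted p = 0.399). Atp5b, the catalytic subunit of ATP synthase, was the other gene with the smallest p (-0.38 ± 0.14, limma adjusted p = 0.369).

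Fabp3, a fatty acid carrier of oxidative muscle, had the largest difference of this list and was chosen after its values were seen. It had 6.11, 6.60 and 5.48 in the mutant and 6.25, 7.47 and 6.95 in wild type, a difference of -0.83 ± 0.67 (limma adjusted p = 0.555). Among the factors that PGC-1 alpha is best known to act through or induce, none passed. Nrf1 differed by 0.14 ± 0.26, Gabpa by 0.08 ± 0.15 and Tfam by -0.01 ± 0.06, and these too were named after their values were seen. The list had 16 differences below 0 and 6 above, so these genes do not stand for it.

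The 14 genes that work with Esrrb in mouse embryonic stem cells had 7 differences above 0 and 7 below, with a median of -0.01. An unadjusted p under 0.05 was found for 4 of the 14, or 28.6%, against 7.35% of all genes, and 2 of the 4 were lower and 2 higher in the mutant. Klf5, an epithelial zinc finger factor, had 6.68, 7.93 and 7.25 in the mutant and 7.50, 8.16 and 8.08 in wild type. It was lower in the mutant in each pair (-0.63 ± 0.34, limma adjusted p = 0.399), as was the related Klf4 (-0.48 ± 0.34, limma adjusted p = 0.541). The other 2, named after their values were seen, were Sox2 (0.79 ± 0.77) and Tbx3 (0.41 ± 0.34), with adjusted p of 0.659 and 0.621 (limma). Sox2 had the largest difference of the list, with 4.61, 5.89 and 3.71 in the mutant arrays and 3.90, 4.31 and 3.65 in the wild type arrays.

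**Figure D4:**
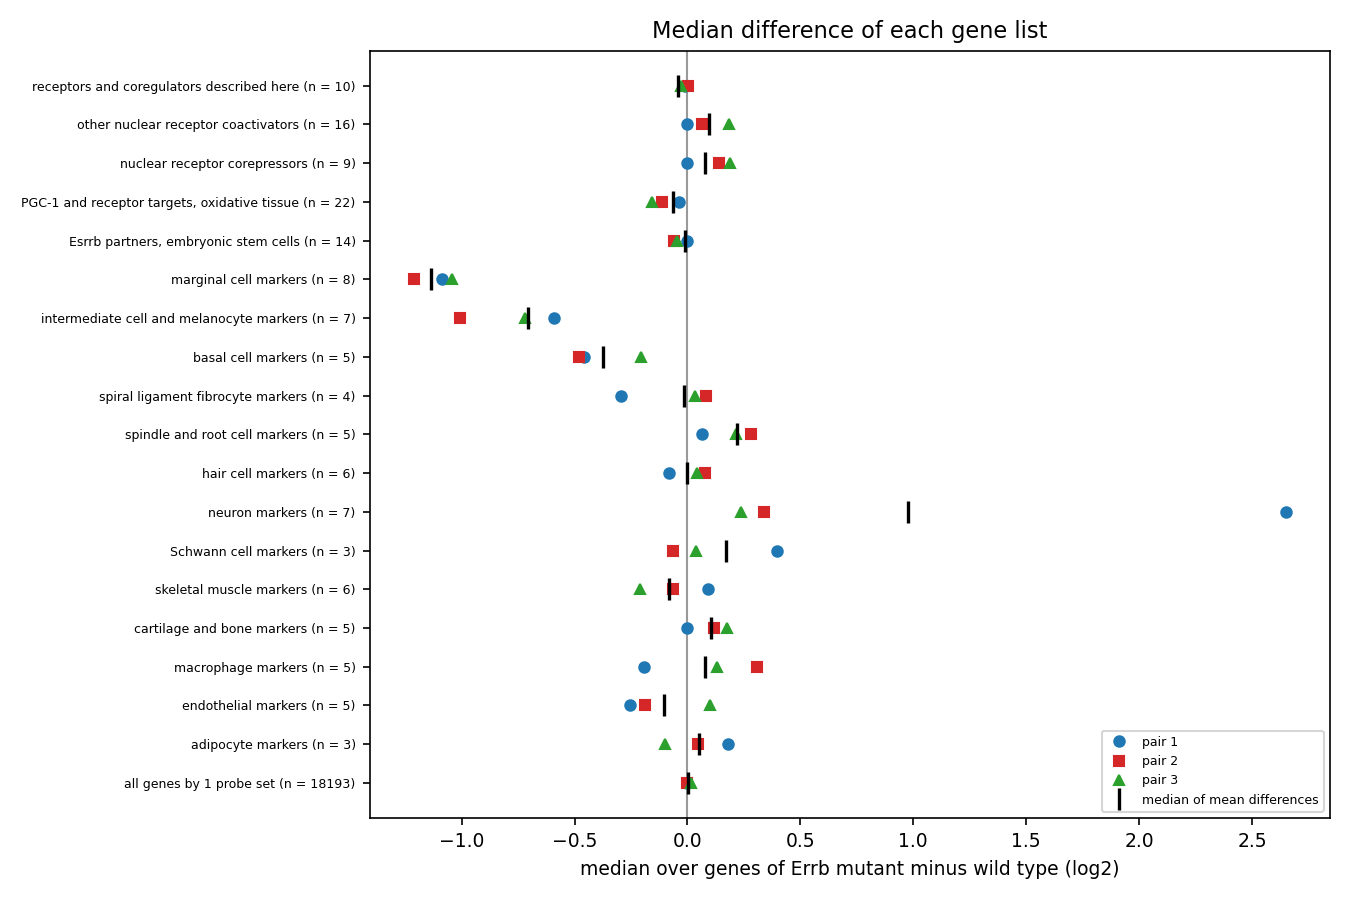
Median over the genes of each list of the difference in log2 expression, Errb mutant minus wild type, for lists with 3 or more measured genes. Symbols are the 3 pairs and the black tick is the median of the mean differences; the receptor and coregulator lists lie near 0, whereas the marginal cell markers lie at -1.13 and the neuron markers of pair 1 at 2.65.

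The genes most like each receptor were found by Pearson correlation over the 6 arrays after the median of each array had been subtracted, among genes at or above the median level. Arrays of a pair share deviations, so high values are common and are given as a description. For Esrrb 1441921_x_at the 3 most alike of 11501 genes were Gdap2 (r = 0.95), Flacc1 (0.94) and A430105J06Rik (0.94). For Esrra 1460652_at they were Sirt3 (0.99), Tex2 (0.98) and Gzf1 (0.97), and for Esrrg 1455267_at Phlpp1 (0.99), Ppp2r3d (0.98) and Blnk (0.98). None of these 9 genes passed, with differences between -0.16 and -0.05 and adjusted p-values of 0.730 to 0.880 (limma). They were picked for tracking receptor probe sets of small difference over both genotypes, so small differences were likely from the start.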

How the data were processed

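The authors deposited log2 expression values per probe set for 6 arrays, and the submitters' processing notes name RMA, with neither version nor settings. Their range shows a log2 scale. They were used as deposited. Of 45101 rows, 64 control probe sets were left out, and 34945 of the 45037 tested had 1 gene symbol, 932 several and 9160 none. The fits used limma 3.58.1 under R 4.3.3, two-sided, with replicate number as a block; the fit was tested on simulated data.

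The replicate numbers come from the labels. Same-numbered arrays deviated together from their genotype's mean (r = 0.879, 0.818 and 0.746, all over 0.1), so the numbers were taken to pair the samples. No source used here says whether RMA was run pair by pair, so differences were taken within pairs; a level or percentile set between pairs carries this limit. The members and lists were chosen with earlier results of these data known. A gene was named if it was a member, had 1 of the 2 smallest p of its list, or was among the 3 most like a receptor; exceptions are marked. Of 65 other listed genes 61 were matched. Alternatives were no block, quantile normalization, median centring, a filter at the 25 percentile of level, a variance trend with robust moderation, array weights, leaving out each pair, leaving out probe sets that can cross-hybridise, and averaging the probe sets of each gene.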

Additional observations from a re-analysis of the deposited data

How the results depend on the processing

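No member probe set and no gene of the 4 lists passed in the paired limma fit or in any alternative run. The lowest adjusted p of a single member probe set ranged from 0.109 to 1.00 (limma). For the mean of the Ppargc1a probe sets the adjusted p was 0.0788 in the paired fit (limma). Leaving out replicate 1, 2 or 3 gave 0.0537, 0.837 and 0.603 (limma). It was 0.104 with array medians subtracted (limma) and highest in the fit without the block. The number of all probe sets called was 42, against 3 with no replicate block, 77 with array weights, and 0 to 7 when 1 pair was left out, where 1 residual degree of freedom remained. With no replicate block, the count of members at an unadjusted p under 0.05 was 0, against 7. The estimates were the same in both fits, but without the block the pairs' own spread enters the error. The standard error of Ppargc1a 1456395_at was 0.065 with the block and 0.395 without it. The following values near 0, none of them called, changed sign. Ncoa1 1418594_a_at was 0.0056 with array medians subtracted and 0.012 with array weights. When 1 pair was left out, it ranged from -0.056 to 0.024, and Ncoa1 1434515_at from -0.044 to 0.23. Over the same settings Esrrb 1441921_x_at ranged from -0.15 to 0.049, Esrrb 1436926_at from -0.41 to 0.017 and Esrra 1442864_at from -0.012 to 0.084. Ppargc1b ranged from -0.015 to 0.050, Pprc1 from -0.0014 to 0.19 and Ncoa3 1448027_at from -0.0086 to 0.060. Nrip1 1434384_at ranged from -0.12 to 0.057 and 1454295_at from -0.12 to 0.0018. The median of the other coactivators was -0.0076 without replicate 3. That of the Esrrb partners was 0.0047 with quantile normalization, 0.0034 with array medians subtracted, -0.17 with the filter on level and -0.055 without replicate 2. For Ppargc1a no sign changed, although dropping the block, filtering on level or adding the variance trend could not change any sign. Its probe set 1460336_at ranged from -0.96 to -0.35 and 1434099_at from -0.80 to -0.58, and Esrrb 1422986_at ranged from -0.61 to -0.17. Signal over background is not given, which limits the low probe sets of Esrrg and Nr0b1.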
